A study of Mus musculus with 2 samples.

Results

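The kinesin, dynein and dynactin genes were described by the accessible chromatin at and around them in embryonic mouse motor neurons. They were taken by name as the protein-coding genes called Kif or Klc with a number, the subunits of dynein-1 and dynein-2 called Dync1 and Dync2, and Dctn with a number. This gave 55 of the 21887 protein-coding genes of the autosomes and sex chromosomes, namely 38 kinesins, 4 kinesin light chains, 5 dynein-1 subunits, 2 dynein-2 subunits and 6 dynactin subunits. The rule goes by gene names. The cells were GFP-positive cells of Hb9::GFP embryos on the C57/Bl6 strain at embryonic day 10.5, purified by FACS and labelled spinal motor neurons. Hb9 is the earlier name of the motor neuron homeobox gene Mnx1, so the sort holds whatever cells drive GFP from its promoter. ATAC-seq, in which a transposase cuts and tags open DNA, was done on 1 group of 2 replicates without a comparison group, and whether these came from separate litters is not stated in the labels. Both replicates are pooled in 1 peak list, so no value below has a replicate error and nothing was tested between conditions.

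Kinesins and dynein are motors that walk along microtubules and burn ATP to do so. Most kinesins move toward the plus end, which in an axon points to the growth cone, and cytoplasmic dynein, helped by the dynactin complex, moves toward the minus end and returns cargo to the cell body. Motor neurons have some of the longest axons of the body and depend on both, and mutations in several of these genes cause human motor neuron and axon disease. Another set of kinesins builds and orients the spindle or completes cytokinesis and is used by dividing cells, while dynein-2 and a few kinesins work in cilia.

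The pooled list held 138387 summit entries in 104069 intervals, of which 137849 lay on the chromosomes above. Each entry has a fold, which is the authors' value and divides the signal at the summit by a local background, and a number of reads that was recovered from the deposited values. The median entry had 24 reads, the smallest 11, and the q-value was at or above 0.05 for 17.7% of entries. A site without an entry was below the caller's limit, which does not show that it was closed, and a site open in few cells cannot be told apart from one less open in each cell. Markers of the labelled cell type were accessible, with an entry within 1 kb of an end of 6 of 7 motor neuron genes (3.08-fold to 10.9-fold). The exception was Isl2, whose strongest entry had 7.096-fold. With RefSeq transcription starts counted beside gene ends, Isl2 was no exception, and the share was 7 of 7 (69.3% of all genes). All 5 neural progenitor markers (Olig2, Sox2, Pax6, Nkx6-1 and Hes5) also had a gene-end entry, at 3.92-fold to 7.24-fold. Accessible ends were thus not limited to motor neuron markers. None of 5 blood markers had one. Gata1, Hba-a1, Hbb-y and Alas2 had no entry at all, whereas Ptprc had 16 away from gene ends, the strongest of them 12.1-fold. Of 4 endothelial markers, 2 had a gene-end entry. With so few genes, 6 of 7, 5 of 5 and 2 of 4 do not set these lists apart from the general share of 65.5%. What part cells of these other types play in the values below was not tested.

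Nearly all genes of the transport machinery had an accessible end. An entry with its summit within 1 kb of either end of the annotated span, called a gene-end entry here, was found at 49 of 55 genes (89.1%, 95% exact binomial interval over genes 77.8 to 95.9%), against 65.5% of all protein-coding genes. The strongest of these had a median of 8.78-fold and 106 reads over the 49 genes, beside 8.17-fold and 97 reads over all genes with one. It was 10-fold or more at 15 genes, which is 27.3% of the 55, against 18.9% of all genes, and 30.6% of the 49, against 28.8% of all genes with a gene-end entry. In all, 414 different entries lay inside one of the spans or within 100 kb with an end of the gene as the nearest protein-coding end, and at least 1 of them belonged to 52 of the 55 genes (83.0% of all genes).

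Entries at the ends had the higher medians, and those away from the ends were more numerous. A few entries counted for 2 genes, so the 414 entries made 418 pairs of an entry with a gene. Of these, 92 lay at gene ends, with a median of 6.72-fold and 79.5 reads. Another 195 lay inside the genes, with medians of 2.88-fold and 24 reads, and 122 lay between genes, with 3.14-fold and 23 reads. A further 8 lay inside another gene and 1 at the end of another gene. Entries more than 1 kb from the end of any protein-coding gene, called entries away from gene ends here, numbered 3 per gene in the median, beside 2 over all genes. Their density was 5.12 per 100 kb of the sequence nearest to these genes, beside 4.80 over all genes. At least 10 such entries were found at 9 genes, or 16.4%, against 13.1% of all genes, and none at 11 of the 55, against 33.1%. At the outer limit of 100 kb, Kif2a held an entry of 2.36-fold and 14 reads at 99347 bp. Just outside it lay one beside Kif18a at 101580 bp (2.51-fold, 15 reads), one beside Kif16b at 102016 bp (2.67-fold) and a stronger one beside Kif21a at 105256 bp (12.8-fold, 110 reads).

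**Figure D1:**
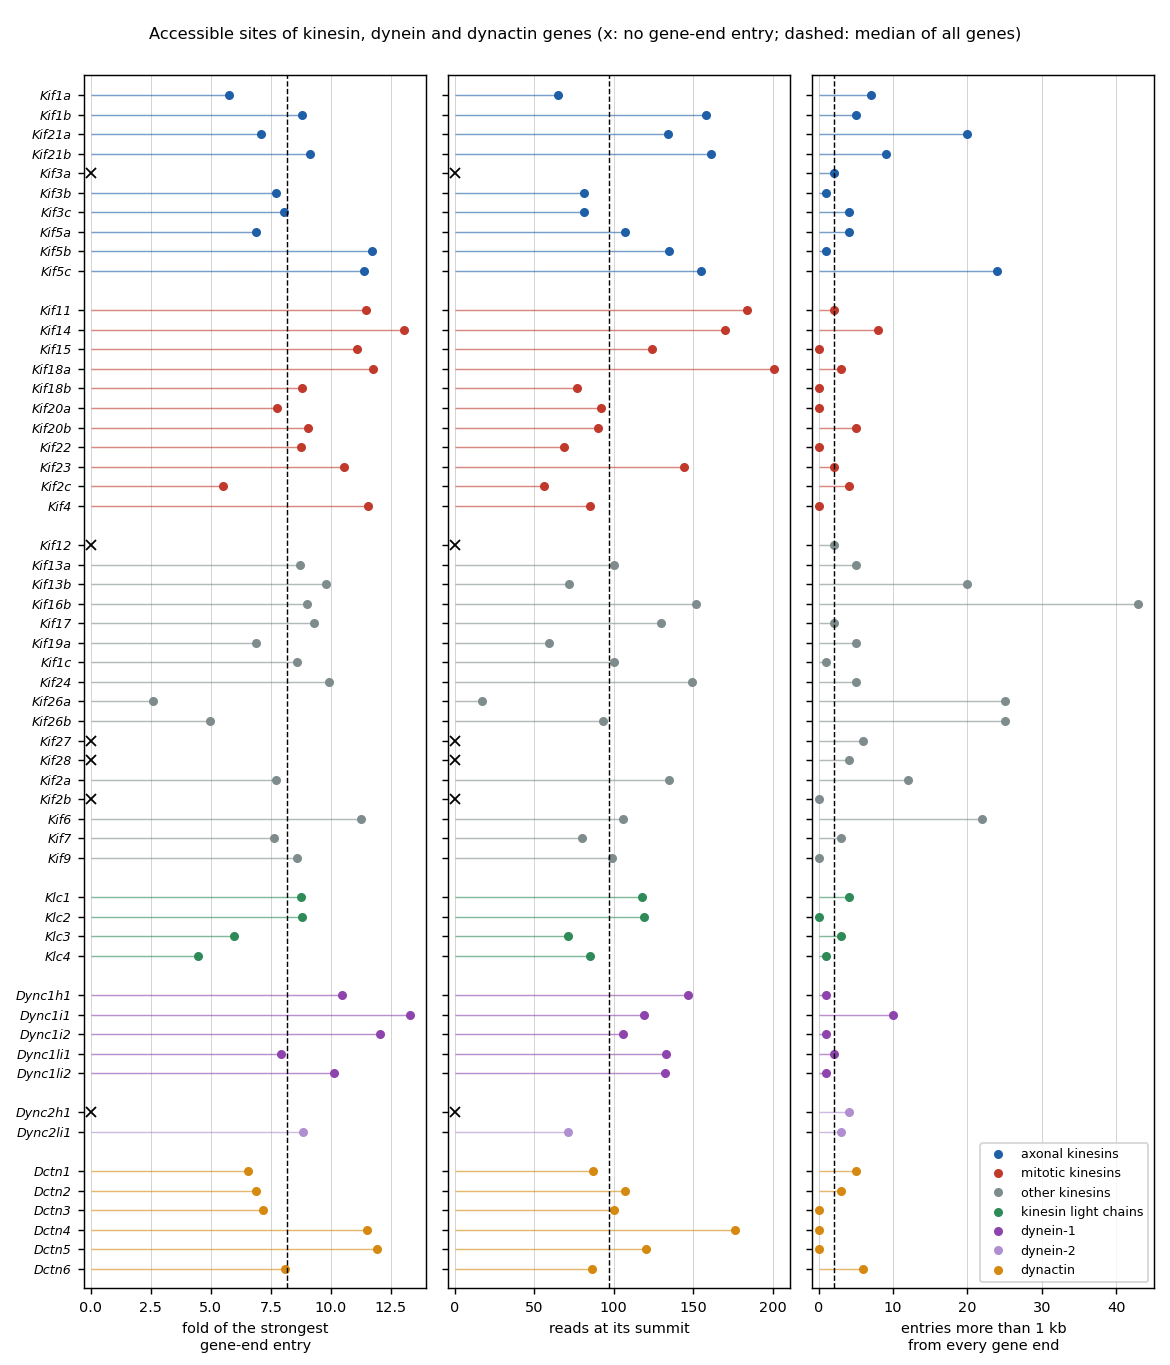
For each gene (rows, grouped by role), the fold of its strongest gene-end entry, the reads at that summit and the number of entries away from gene ends, with a cross where there was no gene-end entry and a dashed line at the median of all protein-coding genes (8.17-fold, 97 reads and 2 entries). Gene ends differ by a few fold (2.61-fold to 13.3-fold), whereas the counts of entries away from them run from 0 to 43 at Kif16b.

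The axonal kinesins are motors that carry vesicles, mitochondria and other cargo outward. Of the 10 genes taken as axonal, 9 had a gene-end entry (90%, interval 55.5 to 99.7%, against 65.5% of all genes). The median was 8.05-fold and 134 reads. All 3 heavy chains of conventional kinesin, or kinesin-1, had one. Kif5b, the heavy chain found in most tissues, had the highest fold of the 10 with 11.7-fold and 135 reads (chr18:6240201-6241753). Kif5c, a heavy chain enriched in neurons, had 11.4-fold and 155 reads (chr2:49619010-49620043). Kif5a, the neuronal heavy chain whose mutations cause human spastic paraplegia and motor neuron disease, had 6.89-fold and 107 reads (chr10:127265815-127266976). That entry is shared with Dctn2, because the 2 spans overlap by 87 bp at their ends, and it cannot be divided between the genes.

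Kinesin-3 motors bring synaptic vesicle precursors into the axon. Kif1a, the best known of them, had the lowest gene-end value of the axonal genes, 5.77-fold with 65 reads (chr1:93100309-93102197). Its strongest site was elsewhere, between genes and 13209 bp beyond that end, with 16.5-fold and 135 reads at chr1:93114930-93115535. Among all entries on the chromosomes this ranked 605th by fold, within the top 0.439%. Kif1b, which carries vesicle precursors and mitochondria, had 8.81-fold and 158 reads there (chr4:149306838-149308466) and a site of 9.26-fold and 86 reads 52326 bp inside the gene.

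The Kif3 motors of kinesin-2 work as pairs of different heavy chains, in axons and in cilia. Kif3b had 7.71-fold and 81 reads at its end (chr2:153290892-153291920), and Kif3c, a partner used in neurons, 8.05-fold and 81 reads (chr12:3364807-3366225). Kif3a, the common partner of both, had none there. An entry of 11.6-fold and 103 reads at chr11:53567062-53568008, its strongest, lay 1807 bp inside the span and 139 bases downstream of a RefSeq transcription start. The span of Kif3a therefore reaches past its accessible promoter, and with that start counted all 10 axonal genes had an entry at an end or a start (69.3% of all genes).

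Kif21a and Kif21b are kinesin-4 motors that also hold back microtubule growth. Kif21b had 9.11-fold and 161 reads at its end (chr1:136131007-136132071), the most reads of the axonal genes. Kif21a had 7.09-fold and 134 reads (chr15:91049086-91050776), where 4 summits share 1 interval at 6.57-fold to 7.09-fold. Kif21a is mutated in a human disorder of the eye muscle nerves.

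Away from gene ends, Kif5c and Kif21a stood apart from the other axonal genes. Kif5c had 24 such entries, 22 of them inside its span of 155493 bp, and Kif21a had 20. Kif21b followed with 9, Kif1a with 7 and Kif1b with 5, then Kif3c and Kif5a with 4 each, Kif3a with 2, and Kif3b and Kif5b with 1 each. The sites along Kif5c were many and modest. The strongest had 6.87-fold and 50 reads at chr2:49632986-49633882, and the median was 3.40-fold. Those of Kif21a included stronger ones on both sides of its end. Between genes lay entries of 15.4-fold and 129 reads (chr15:91080972-91081287, 30716 bp out), 10.2-fold and 74 reads (chr15:91092218-91092967), 7.71-fold and 7.51-fold. Inside the gene lay entries of 10.03-fold and 108 reads (chr15:90972050-90973463), 8.77-fold and 133 reads (chr15:91018501-91019123) and 7.96-fold. Counted as entries per 100 kb, the compact Kif21b was densest among the axonal genes with 16.6, ahead of Kif5c with 12.3 and Kif21a with 7.55. Several entries of Kif21b share an interval, as at chr1:136173899-136174673, so its lead over Kif5c holds for entries and not for intervals. Conventional kinesin thus ranged widely, from 0.588 per 100 kb at Kif5b and 7.21 at Kif5a to the 12.3 at Kif5c.

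All 11 mitotic kinesin genes had a gene-end entry (100%, interval 71.5 to 100%, against 65.5% of all genes), with a median of 10.5-fold and 92 reads. The highest fold was at Kif14, a motor of cytokinesis, with 13.0-fold and 170 reads (chr1:136466005-136466707). Kif18a, which damps chromosome movements at the metaphase plate, had the most reads of the list, 201 at 11.7-fold (chr2:109280412-109281611). Its end overlaps that of Mettl15, which shares the entry. Kif11, the motor that pushes spindle poles apart, had 11.4-fold and 184 reads (chr19:37375705-37376730). Kif15, which helps to hold the bipolar spindle, had 11.1-fold and 124 reads (chr9:122950429-122951539).

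Chromosome arm motors and the central spindle motors were accessible as well. Kif4, a chromokinesin, had 11.6-fold and 85 reads (chrX:100625720-100626630), and Kif22, another, 8.76-fold and 69 reads (chr7:127041857-127042744). Kif23, the motor of the centralspindlin complex, had 10.5-fold and 144 reads (chr9:61946109-61947181). Kif20a and Kif20b, which act in cytokinesis, had 7.75-fold with 92 reads (chr18:34624029-34625234) and 9.05-fold with 90 reads (chr19:34921474-34922655). Kif18b, which shortens astral microtubules, had 8.80-fold and 77 reads (chr11:102924564-102925619). Kif2c, a microtubule depolymerase of the centromere, had the lowest value at its end, 5.51-fold and 56 reads (chr4:117182031-117182877), but an entry of 12.9-fold and 128 reads lay 1563 bp inside the gene (chr4:117180939-117181161).

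Away from gene ends the mitotic genes had a median of 2 entries, the same as the 2 over all genes. Kif14 had 8 entries away from gene ends, Kif20b 5, Kif2c 4, Kif18a 3, and Kif11 and Kif23 2 each, while Kif4, Kif15, Kif18b, Kif20a and Kif22 had none (5 of 11, against 33.1% of all genes). The strongest beside Kif20b had 10.03-fold and 68 reads, between genes and 14270 bp from its end. Kif4 had no entry by the nearest-end rule at all, since the summit of its only entry is nearer to Pdzd11, which begins 116 bp away. Kif15 likewise shared its strongest entry with 1110059G10Rik, 80 bp away, and Kif20a shared its own with the overlapping Brd8.

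Between the 2 lists the order at gene ends depended on the quantity. In fold the axonal genes had the lower median, 8.05 against 10.5 for the mitotic genes, and 2 of 10 axonal against 6 of 11 mitotic genes reached 10-fold (18.9% of all genes). This depended on the lists. In a wider axonal list 2 of 16 genes and in a narrower mitotic list 2 of 7 genes reached 10-fold, with medians of 8.73 and 8.80. In reads the axonal genes had the higher median, 134 against 92. The local background by which reads are divided had a median of 12.7 reads at the axonal and 10.3 reads at the mitotic entries, so a lower fold did not come with fewer reads. The difference in reads also varied with the genes and sites taken. In the wider axonal and narrower mitotic lists the medians were 130 and 90 reads. Without Kif5c and Kif21a, a choice made after seeing the data, the axonal median was 107 reads. Within 1 kb of RefSeq starts, the strongest entry had a median of 103 reads in 7 axonal and 107 in 8 mitotic genes, the reverse order. Every range overlapped. Axonal ends ran from 5.77-fold to 11.7-fold and from 65 to 161 reads, and mitotic ends from 5.51-fold to 13.0-fold and from 56 to 201 reads. With no replicate values, neither difference can be set against replicate error.

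Away from gene ends the axonal genes had more entries, a median of 4.5 (range 1 to 24) against 2 (0 to 8) at mitotic genes and 2 over all genes. At least 10 were found at 2 of 10 axonal and 0 of 11 mitotic genes, against 13.1% of all genes, and none at 0 axonal and 5 mitotic genes, against 33.1%. With so few genes, 2 and 0 are near the general share. The density was 6.53 per 100 kb around axonal and 2.51 around mitotic genes, beside 4.80 over all genes. Without Kif5c and Kif21a, a choice made after seeing the data, the axonal density was 4.59 per 100 kb and the median 4. The median spans were similar, 44304 bp for axonal and 45482 bp for mitotic genes. The lists still differ at both extremes of length. Up to 25 kb there were 0 axonal genes and 4 mitotic genes, among them 3 of the 5 without an entry away, and the median of those 4 was 0, beside 1 over all genes. Above 100 kb there were 3 axonal genes and 1 mitotic gene, Kif4. Among genes of 25 to 50 kb the median was 3 for 6 axonal and 2 for 2 mitotic genes, beside 2 over all genes of that length. From 50 to 100 kb it was 7 for 1 axonal and 4 for 4 mitotic genes, beside 4 over all genes. Above 100 kb it was 20 for the 3 axonal genes, 0 for Kif4 and 13 over all genes.

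The sites also lay in different places. Of the entries away from gene ends, 61 of 77 (79.2%) were inside the gene itself for axonal kinesins and 5 of 24 (20.8%) for mitotic kinesins, against 58.4% over all genes. These shares count entries, and of the 61 axonal ones 22 came from Kif5c and 11 from Kif21a. Without these 2 genes the axonal share was 84.8%. When only sites outside every gene span were counted, the median was 0.5 per axonal gene and 2 per mitotic gene, the reverse order. The gene table gives no exons, so sites inside a gene were not divided into exonic and intronic ones.

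**Figure D2:**
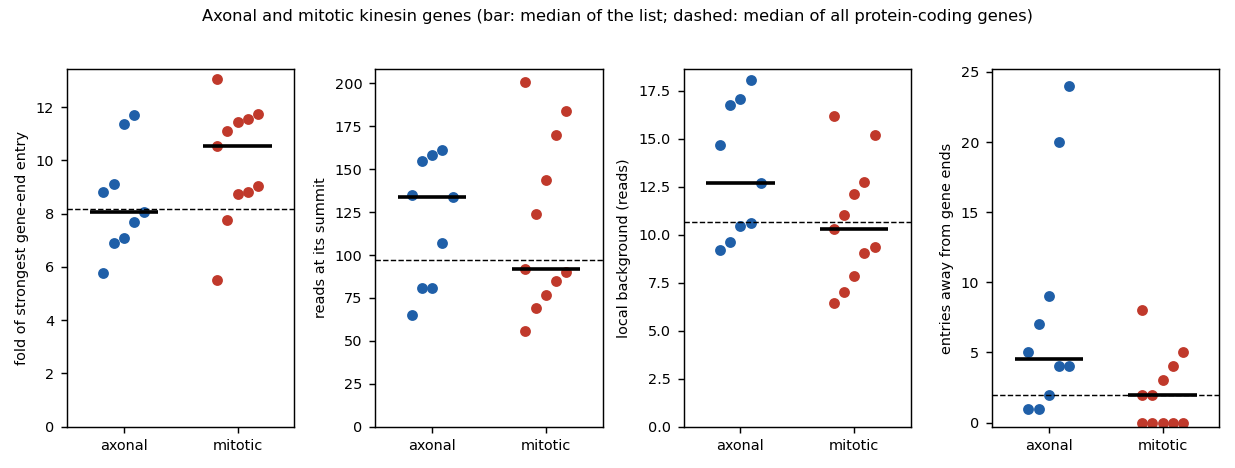
Fold of the strongest gene-end entry, reads at its summit, local background in reads and number of entries away from gene ends for each axonal (left) and mitotic (right) kinesin gene, 1 point per gene, with a bar at the list's median and a dashed line at the median of all protein-coding genes. The axonal median is below the mitotic one in fold (8.05 against 10.5) and above it in reads (134 against 92), and the lists overlap in every panel.

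**Figure D3:**
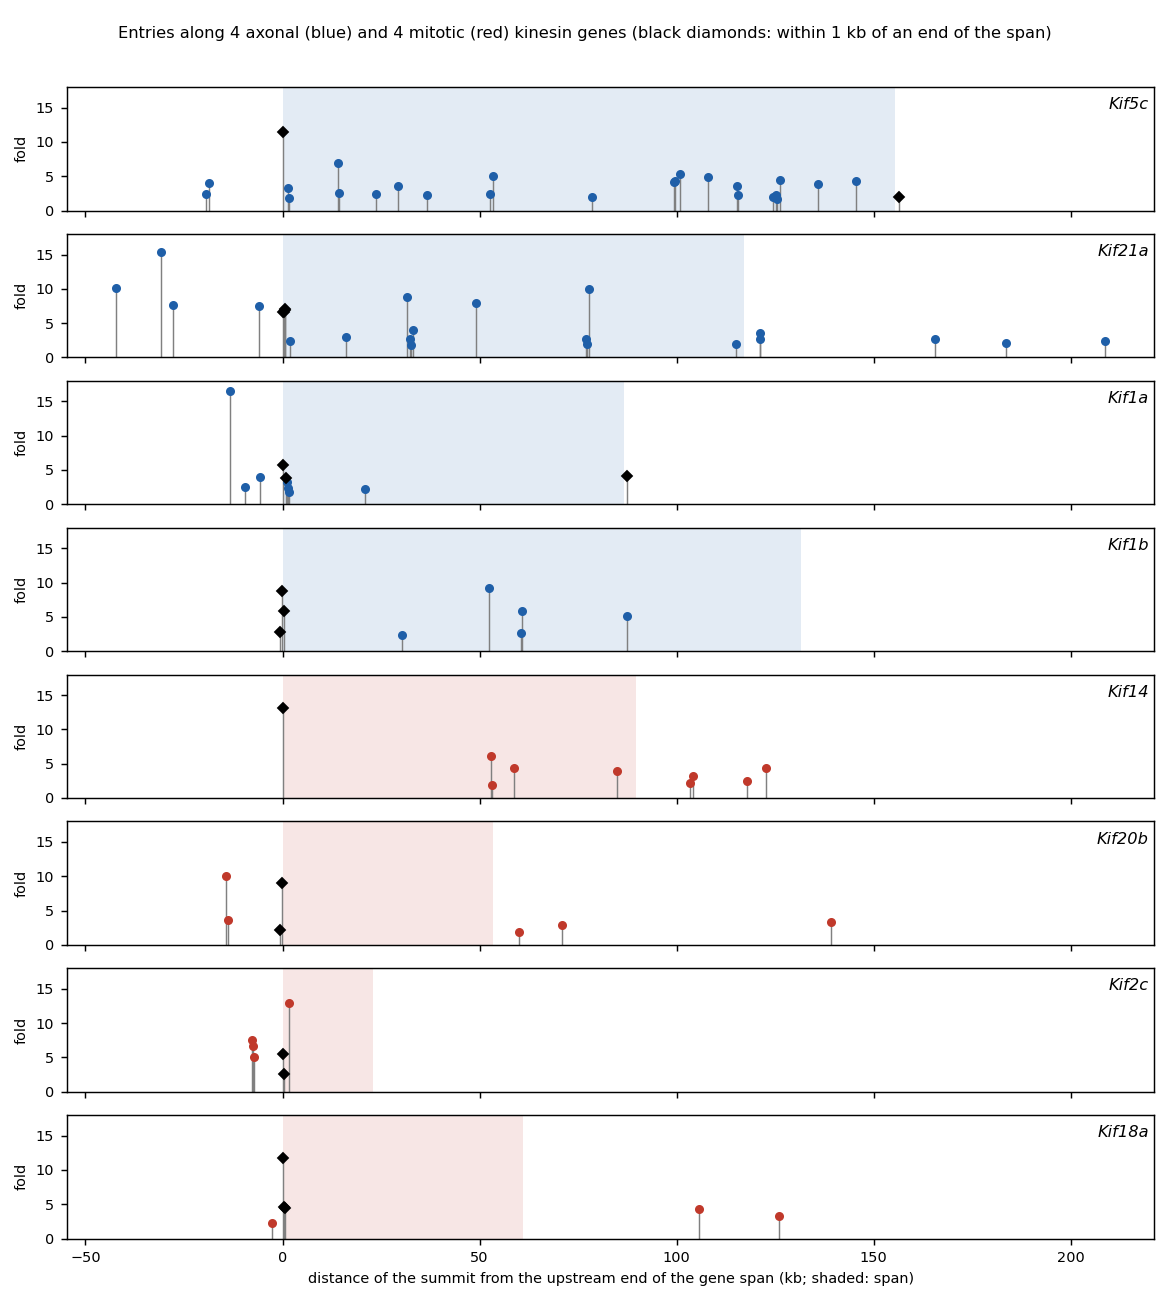
Fold of each entry (vertical axis) against the distance of its summit from the upstream end of the gene in kb (horizontal axis) for 4 axonal genes (blue) and 4 mitotic genes (red), with the gene span shaded and entries within 1 kb of an end as black diamonds. Sites spread along Kif5c and Kif21a, whereas Kif20b and Kif18a have none inside the span beyond those at the end.

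The promoters of the mitotic kinesins shared letters that those of the axonal kinesins mostly lacked. RefSeq promoter sequences (GRCm38.p6, 250 bases before to 50 after a transcription start) were at hand for 43 of the 55 genes, with 49 starts. Kif5a, Kif5b, Kif13b, Kif19a, Kif20a, Kif21b, Kif28, Klc2, Dync1li2, Dync2li1, Dctn4 and Dctn6 were not among them. The cell cycle homology region, or CHR, is a promoter element of genes expressed in late cell cycle and is written TTTGAA, searched here on both strands. It was present in 1 of 9 axonal promoters (11.1%) and in 9 of 10 mitotic promoters (90%), against 16.0% of 21263 protein-coding promoters. The 9 axonal promoters belong to 7 genes, since Kif1a and Kif1b have 2 starts each, whereas the 10 mitotic promoters belong to 10 genes. The axonal match lay at a second start inside Kif1a that had no summit in its window, and the windows of Kif14 and Kif2c, counted among the mitotic matches, held no summit either. The mitotic promoter without a match was that of Kif18a. Kif15, Kif20b and Kif22 held 2 matches each. Within 30 bases of the start, a window chosen after seeing the matches, CHR letters stood in 0 of 9 axonal and 7 of 10 mitotic promoters, against 2.28% of all.

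The accessible summit lay close to these starts. Among genes with an entry within 1 kb of a RefSeq start, the strongest summit lay upstream of the start in 3 of 7 axonal genes and in 8 of 8 mitotic genes, against 49.8% of all such genes. The distance to the start had a median of 72 bp at axonal and 67 bp at mitotic genes, beside 95 bp over all genes. The 300-base window itself held a summit in 5 of 9 axonal and 8 of 10 mitotic promoters, against 42.3% of all. The RefSeq starts of Kif14 and Kif2c, both inside the spans, had no entry within 1 kb. The summit of Kif14 lay at -1495 from its start and the stronger one of Kif2c at -2289, so the letters searched for these 2 genes are not those under the accessible site.

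The promoters of 3 axonal genes, for comparison, and of the 7 mitotic genes with CHR letters next to the start are shown, each from 70 bases before to 30 bases after the start, 5′ to 3′ in the direction of the gene. Capitals mark CHR letters (TTTGAA, or TTCAAA where the match is on the other strand) and CCAAT letters (CCAAT, or ATTGG on the other strand), the box bound by the factor NF-Y. The 3 axonal promoters (Kif5c, Kif1b and Kif3b) have no CHR match.
Kif5c, chr2:49619216-49619315, + strand: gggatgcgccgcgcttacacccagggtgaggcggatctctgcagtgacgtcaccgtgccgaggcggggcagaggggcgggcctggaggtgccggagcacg
Kif1b, chr4:149307704-149307803, - strand: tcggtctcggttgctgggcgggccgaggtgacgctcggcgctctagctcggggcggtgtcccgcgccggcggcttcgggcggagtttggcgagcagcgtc
Kif3b, chr2:153291346-153291445, + strand: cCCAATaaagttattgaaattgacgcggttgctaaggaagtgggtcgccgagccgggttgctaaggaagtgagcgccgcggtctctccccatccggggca
Kif11, chr19:37376312-37376411, + strand: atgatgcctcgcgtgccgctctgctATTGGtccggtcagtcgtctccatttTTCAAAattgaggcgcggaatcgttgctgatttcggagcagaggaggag
Kif15, chr9:122951011-122951110, + strand: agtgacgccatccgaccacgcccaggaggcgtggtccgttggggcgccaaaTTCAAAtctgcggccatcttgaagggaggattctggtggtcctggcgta
Kif18b, chr11:102925095-102925194, - strand: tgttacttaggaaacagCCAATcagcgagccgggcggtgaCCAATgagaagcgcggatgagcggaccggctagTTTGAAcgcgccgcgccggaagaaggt
Kif20b, chr19:34922288-34922387, + strand: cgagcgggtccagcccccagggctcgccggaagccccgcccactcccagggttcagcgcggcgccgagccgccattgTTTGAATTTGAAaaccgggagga
Kif22, chr7:127042391-127042490, - strand: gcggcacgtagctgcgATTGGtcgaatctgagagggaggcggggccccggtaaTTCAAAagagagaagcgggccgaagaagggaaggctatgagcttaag
Kif23, chr9:61946770-61946869, - strand: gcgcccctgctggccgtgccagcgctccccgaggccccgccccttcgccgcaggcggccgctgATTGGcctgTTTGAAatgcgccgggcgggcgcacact
Kif4, chrX:100625995-100626094, + strand: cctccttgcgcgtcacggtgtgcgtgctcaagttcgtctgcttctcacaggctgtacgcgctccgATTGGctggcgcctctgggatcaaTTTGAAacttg

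In these sequences the first CHR base, counted along the gene with the start as 1, was at -19 in Kif11 and Kif15, -17 in Kif22, 3 in Kif23, 4 in Kif18b, 8 and 14 in Kif20b and 20 in Kif4. In Kif20b the 2 copies follow each other directly. A CCAAT box stood upstream of the CHR in Kif11, Kif18b, Kif22, Kif23 and Kif4, and no CHR match overlapped a CCAAT match. Over the whole window the CCAAT box did not set the lists apart as the CHR did. It was present in 4 of 9 axonal and 6 of 10 mitotic promoters, against 38.2% of all. The GC box GGGCGG was present in 6 of 9 axonal and 6 of 10 mitotic promoters, against 46.2%. In both of these axonal counts the 2 overlapping windows of Kif1b were counted separately. The E-box CAGCTG, of the kind bound by proneural factors, was in 3 of 9 axonal and 0 of 10 mitotic promoters, against 15.6%. Those 3 were the promoter of Kif3b and both promoters of Kif1a, whose second start had no summit in its window. The median ratio of observed to expected CpG was 0.718 in axonal and 0.909 in mitotic promoters, beside 0.567 over all. A match is only a description of the letters, and binding was not measured.

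**Figure D4:**
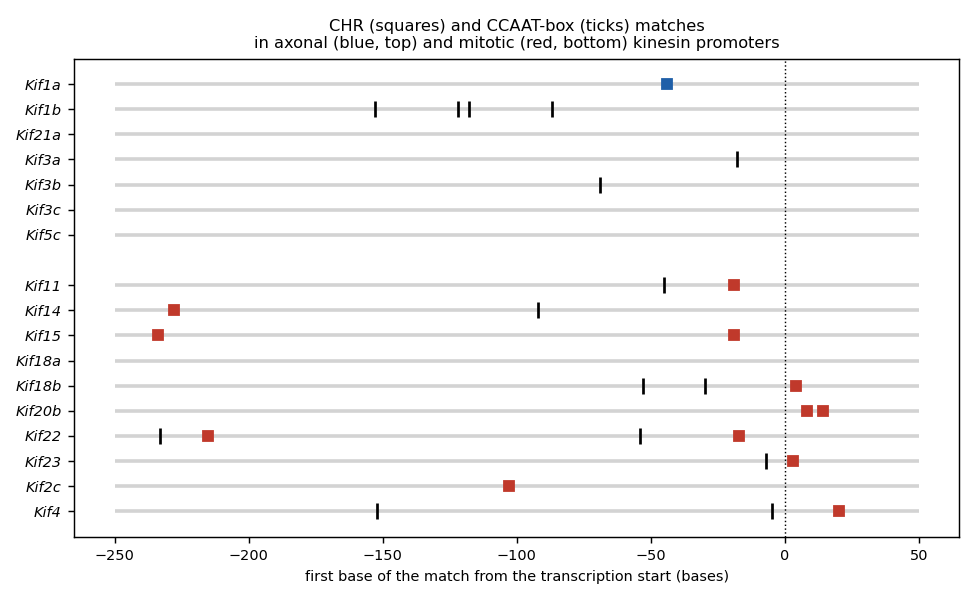
Positions of CHR (squares) and CCAAT (ticks) matches on either strand in the 300-base promoter windows of 7 axonal (top, blue) and 10 mitotic (bottom, red) kinesin genes, in bases from the transcription start, with the windows of genes with 2 starts drawn on 1 row so that the same match of Kif1b appears once per start. CHR matches gather within 30 bases of the start in 7 mitotic genes, whereas the single axonal one, at -44, belongs to the second start of Kif1a.

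The other 17 kinesins varied most, and 13 of them had a gene-end entry (76.5%, against 65.5% of all genes), with a median of 8.60-fold. Kif16b, a kinesin-3 motor of early endosomes, had the most entries away from gene ends of all 55 genes, 43, of which 22 were inside its span of 283270 bp. Its end had 8.99-fold and 152 reads. Kif26a and Kif26b, unusual kinesins that do not use ATP to walk, had 25 each, and Kif26a was the densest of all 55 genes with 17.1 per 100 kb. At Kif26b, 23 of the 25 lay inside its span of 403733 bp. Their ends were low in fold, 2.61-fold and 17 reads for Kif26a and 4.95-fold and 93 reads for Kif26b, where the local background was 17.99 reads. For Kif26a that value lay 760 bp beyond the far end, and an entry of 5.39-fold and 82 reads lay near a RefSeq start 2234 bp inside the span.

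Motors of cilia appeared among both the rich and the poor loci. Kif6, a motor of motile cilia, had 11.3-fold and 106 reads at its end, which is the highest fold of the other kinesins, with 22 entries away. Kif9, a related ciliary motor, had 8.60-fold and 99 reads and none away. Kif7, which regulates hedgehog signalling at the ciliary tip, had 7.64-fold and 80 reads with 3 away, and Kif17, a ciliary and dendritic motor, 9.28-fold and 130 reads with 2 away. Kif19a, which trims ciliary microtubules, had 6.87-fold and 59 reads with 5 away. Kif27, a relative of Kif7, had no gene-end entry, but 6 entries inside, the strongest at 9.25-fold and 98 reads (chr13:58358684-58359537).

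Kif24, which keeps cilia from forming by acting at the centriole, held the strongest entry of the whole set. It had 37.9-fold and 377 reads and lay inside the gene at chr4:41458015-41458387, 6679 bp from the nearer end. It ranked 139th by fold among all entries on the chromosomes, within the top 0.101%. The gene's own end had 9.92-fold and 149 reads, an entry shared with Nudt2. The next strongest after it were the sites beside Kif1a (16.5-fold) and Kif21a (15.4-fold) given above, also outside gene ends.

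Among the remaining vesicle motors, the end of Kif13b had 9.81-fold and 72 reads, with 20 entries away, while its relative Kif13a had 8.73-fold and 100 reads and 5 away, with 6 summits in the interval at its end. Kif1c, a motor of vesicles between Golgi and endoplasmic reticulum, had 8.60-fold and 100 reads and 1 away. Kif2a, a microtubule depolymerase that limits axon branches, had 7.70-fold and 135 reads and 12 away, all outside the gene. Besides Kif27, no gene-end entry was found at Kif12, Kif28 or Kif2b. Kif12 had an entry of 7.86-fold and 60 reads 1199 bp inside the gene and Kif28 one of 6.20-fold and 43 reads at 21917 bp. Kif2b, a depolymerase of the same family as Kif2a, had no entry of any kind.

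The kinesin light chains link kinesin-1 to its cargo. All 4 genes had a gene-end entry (interval 39.8 to 100%, against 65.5% of all genes). The median was 7.35-fold, beside 8.17-fold over all genes with one. Klc1, the main light chain of neurons, had 8.73-fold and 118 reads, and Klc2 8.78-fold and 119 reads. Klc3, known from sperm tails, had 5.97-fold and 71 reads. Klc4 had 4.48-fold and 85 reads at an end that overlaps Mrpl2 by 18 bp and whose local background, 18.2 reads, was higher than that at Klc3 (11.1 reads), so that Klc4 had the lower fold and the more reads. Away from gene ends Klc1 had 4 entries, Klc3 3, Klc4 1 and Klc2 none, and the strongest of Klc1, 8.80-fold and 88 reads at 8212 bp inside the gene, was as high as its end.

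The 5 subunits of cytoplasmic dynein-1 had some of the strongest ends, with a median of 10.4-fold and 132 reads, and 4 of 5 reached 10-fold (18.9% of all genes). Dync1i1, an intermediate chain enriched in neurons, had 13.3-fold and 119 reads (chr6:5725467-5726422), the highest gene-end fold of all 55 genes. Dync1i2, the intermediate chain found in most tissues, had 12.04-fold and 106 reads (chr2:71211402-71212543). Dync1h1, the heavy chain that holds the motor itself, had 10.4-fold and 147 reads (chr12:110601065-110602205). Among the light intermediate chains, which connect dynein to cargo adaptors, Dync1li2 had 10.1-fold and 132 reads and Dync1li1 7.90-fold and 133 reads. Both had about the same reads, over a background of 12.1 reads at Dync1li2 and 16.0 reads at Dync1li1.

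The intermediate chains differed away from their ends. Dync1i1 had 10 entries there, 7 of them inside its span of 302440 bp, and the strongest, 9.07-fold with 71 reads, lay 22083 bp from the far end (chr6:6005488-6006392). Dync1i2 had 1, as did Dync1h1 and Dync1li2, and Dync1li1 had 2. Per 100 kb, Dync1i1 had 2.44 and Dync1i2 1.09. Both were below the 4.80 pooled over all genes and below the median of 3.02 per gene. The count of Dync1i1 thus came with a long gene rather than with a dense one.

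Dynein-2 drives return transport in cilia. Its light intermediate chain Dync2li1 had an end of 8.85-fold and 71 reads, with 3 entries away. The heavy chain Dync2h1 had no entry within 1 kb of its own ends. An entry of 11.7-fold and 100 reads (chr9:7176486-7177387) lay 67 bases downstream of its RefSeq start, 1315 bp inside the span and within 1 kb of the end of the neighbour Dcun1d5. A stronger one, 14.1-fold with 181 reads, lay inside Dcun1d5 at chr9:7183941-7185434, nearest to the end of Dync2h1. It is assigned by distance alone.

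All 6 dynactin genes had a gene-end entry (interval 54.1 to 100%, against 65.5% of all genes), and 3 of the 6 shared it with a neighbour. The median was 7.62-fold and 103.5 reads, beside 8.17-fold and 97 reads over all genes with one. Dctn5, a subunit of the pointed end of dynactin's filament, had the highest, 11.9-fold and 120 reads (chr7:122132469-122133402). Palb2 begins 60 bp away, and the summit lay inside Palb2, 79 bp from the end of Dctn5 and nearer to that of Palb2, so that Dctn5 has no entry by the nearest-end rule. Dctn4, of the same end, had 11.5-fold and 176 reads (chr18:60525639-60526861), and Dctn6 8.08-fold and 86 reads. Dctn3, part of the shoulder, had 7.15-fold and 100 reads, shared with Arid3c. Dctn2, or dynamitin, had the 6.89-fold entry shared with Kif5a.

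Dctn1, the large subunit that binds microtubules and dynein and is mutated in a human motor neuron disease, had the lowest end of the 6, 6.53-fold and 87 reads (chr6:83165571-83166465). The RefSeq promoter table holds 2 starts inside the gene. At the one 20037 bp in, an entry of 7.34-fold and 84 reads (chr6:83185764-83186359) lay 112 bases downstream of the start, as high as the end itself, and at the other the stronger of 2 entries had 2.90-fold and 19 reads. Away from gene ends Dctn6 had 6 entries, Dctn1 5, Dctn2 3, and Dctn3, Dctn4 and Dctn5 none.

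Shared ends were not particular to dynactin. The strongest gene-end entry lay within 1 kb of another protein-coding gene's end as well in 13 of the 49 genes with one (26.5%), against 22.4% of all genes with one. Of these, 2 were axonal (Kif5a and Kif21a) and 4 mitotic (Kif4, Kif15, Kif18a and Kif20a). For these 13 the data do not assign the site to one gene or the other.

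Other genes of the same transport system gave a similar picture at their ends. They were adaptors, light chains, regulators and further kinesins whose names fall outside the rule (Kifc1, Kifc2, Kifc3 and Cenpe). Of 34 such genes, 31 had a gene-end entry (91.2%, against 65.5% of all genes), with a median of 9.68-fold and 122 reads. The highest were Bicd1, a dynein adaptor, with 14.2-fold, Dynlt3, a dynein light chain, with 14.2-fold, and Kifbp, a kinesin-binding protein, with 13.8-fold. Dynll2, Kifap3 and Madd had none at their ends. Their strongest entries were 11.96-fold for the light chain Dynll2, 15.2-fold for Kifap3, the adaptor of Kif3 motors, and 10.5-fold for Madd, which links Kif1 motors to Rab3 vesicles. With RefSeq starts counted as well, 33 of the 34 genes had an entry at an end or a start (69.3% of all genes). Away from gene ends these genes had a median of 1 entry, beside 3 over the 55 genes and 2 over all protein-coding genes. The most were 32 at Trak1, the adaptor that ties mitochondria to kinesin, 12 at Bicd1 and 11 at Kifc3.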

How the data were processed

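The authors deposited 1 filtered peak list pooled over both replicates. Per the submitters' processing notes, the build was mm10 and the tools were MACS2 2.2.7.1, BWA 0.7.1.7, cutadapt 0.6.2, SAMtools 1.7.2 and Trim Galore. Not given in the sources used here are their roles and settings, the filter, the handling of duplicates and any shift for the transposase cut. Libraries had 8 to 9 PCR cycles and paired 75-nt reads, per the labels.

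Each entry's fold is a ratio to local background, as deposited by the authors. Its significance is the −log10 of p and q, from the authors' file. A score column deposited by the authors was not used. Reads were solved from the deposited fold and −log10 p, assuming a Poisson tail and the ratio of pileup plus 1 to background plus 1. In 99.96% of entries, and 100% of those beside these genes, the result was whole to within 0.01. Total depth is unknown, and intervals cover counting error only. Up to 20 entries share an interval, and 414 different entries beside 55 genes limit the precision of every median.

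Gene spans came from a RefSeq table of GRCm38.p6, the assembly behind mm10, which gives no strand or exons. Strand and starts came from the RefSeq promoter table, which covers 17492 protein-coding genes. Coordinates are mm10, counted from 1. All axonal, mitotic, light chain, dynein and dynactin genes were named. Of the other kinesins the rule asked for those with most entries, highest ends or no gene-end entry, and the rest were named to account for every gene. Of the further transport genes, the 3 with the highest ends, the 3 with most entries away and those without a gene-end entry were named. Members, lists, motifs and rules were chosen with earlier results of these data known. There was no test between groups. Motifs were 8 fixed strings. Scripts (Python 3.11.15, pandas 2.3.3, scipy 1.17.1) were tested on simulated data. Alternatives covered the q-value, the entries kept, the windows and the lists.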

Additional observations from a re-analysis of the deposited data

How the results depend on the processing

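Of 53 values recomputed under other settings, 46 moved by less than the limit set for them and 7 moved further. Keeping the 50% of entries with the higher −log10 q, the median number of entries away from gene ends was 2.5 per axonal gene, 1 per mitotic gene and 1 over all 55 genes, in place of 4.5, 2 and 3, and also 1 over all protein-coding genes. With 1 entry per interval it was 3.5 per axonal gene and 1 per mitotic gene. With only entries outside every gene span it was 0.5 per axonal gene and 0 over all 55 genes, but still 2 per mitotic gene, and 0 over all protein-coding genes, so the order of the lists turned round there. This follows from the setting itself, which leaves out the sites inside genes that most axonal entries are. With the higher 50% of entries and with those outside gene spans, the 55 genes therefore had the median of all genes, and not the 3 beside 2 reported. Counting RefSeq starts as well as gene ends, an alternative chosen after seeing the data, gave 100% of axonal genes and 92.7% of all 55. In fold at gene ends, a wider axonal list of 16 genes had a median of 8.73 and a narrower mitotic list of 7 genes 8.80, closer to each other than the 8.05 and 10.5 of the lists used.

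No paired analysis was possible because both replicates of the 1 group are pooled in a single list, and for the same reason no replicate could be left out. No value has a replicate error. The smallest entry had 11 reads, and 19.1% of those away from gene ends beside these genes had a q-value of 0.05 or more. Leaving out entries with such q-values kept the medians at 4.5, 2 and 3, whereas the median over all protein-coding genes went from 2 to 1.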

Other observations

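The sites inside the long motor genes lay on both sides of the middle, to differing degrees. Of the 22 entries inside Kif5c and away from its ends, 9 lay nearer the start and 13 nearer the far end, and they fell in 17 separate intervals. Kif16b had 10 nearer the start and 12 nearer the far end, and Kif26b 12 and 11. Kif6, the ciliary motor, had 5 nearer the start and 11 nearer the far end. In Kif21a the start side had 7 and the far side 4, in 7 intervals, and in the dynein intermediate chain gene Dync1i1 the start side had 5 and the far side 2. In Kif1b the start side had 4 and the far side 1.

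Other promoter letters were rare among these genes. The palindromic site of the factor NRF1 was present in 1 of 49 promoters, that of Dync1li1, against 1.33% of all promoters. The Onecut site ATCGAT was in that of Dync2h1 only, against 0.856%, and the EBF site (TCCC, any 2 bases, GGGA) in that of Kif13a only, against 0.959%. The homeodomain site TAATTA was in that of Kif27 only, with 2 copies, against 4.53% of all promoters. Outside the mitotic list, CHR letters were found in promoters of Kif1a, Kif26b, Kif27 and Dctn1. In Kif26b they lay at -9, the only non-mitotic gene of the set with a match within 30 bases of its start.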
